A study of Homo sapiens with 14 samples.

Results

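MAD1L1, the human gene of the spindle checkpoint protein MAD1, gave 17 different circular RNAs (circRNAs) in the fractions of HepG2 cells. A circRNA belonged to the set when both of its ends lay inside the RefSeq span of the gene, on chromosome 7 from 1815795 to 2232945 (GRCh38.p14), which is 417151 bases on the minus strand. The 6 tables together listed 11227 circRNAs, so the 17 are a small part of them. The gene was chosen by its count of circRNAs in the nucleus table, the highest of all hosts, with 9 against 8 for TBCD, which encodes a tubulin folding cofactor, and 7 for ANKRD36C. Nuclear values are therefore given as a description without a test.

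HepG2 is a human liver cancer cell line, and the labels name no treatment. The 12 libraries used came from whole cells and from samples labelled nucleus, cytoplasm, ribosome, cytosol and exosome, with 2 libraries each. How the fractions were separated was not given in the sources used here. Ribosomal RNA was removed from all of them except the exosomal ones, so a level per library read has another denominator in exosomes. The labels do not say whether the 2 libraries of a fraction came from separate cultures, so p-values measure the spread between libraries, which may be technical.

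Circular RNAs form when a splice donor is joined back to an acceptor upstream of it, and a read across that back-splice junction is their signature. Having no free ends, they resist exonucleases, and those made of exons are mostly found in the cytoplasm. MAD1 holds MAD2 at kinetochores that lack microtubules and so helps to delay anaphase. Between divisions it sits at the nuclear pore, where the pore basket protein TPR anchors it. The tables hold junction reads of circRNAs and no linear transcripts, so they show nothing of the level of MAD1 mRNA or protein.

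Depth differed widely between fractions. The libraries held from 2301 to 72415 circRNA reads, with 7727 and 7235 in the nucleus and 2304 and 2301 in exosomes. Every entry of a caller had at least 1 read in each of the 2 libraries, so an unlisted circRNA is not a measured 0. Of 9 hepatocyte secretory genes checked as circRNA hosts, 4 were listed (ALB, FGA, FGG and APOB), and none of the 9 was listed in the nucleus. ALB alone took 10257 and 7638 reads of the cell libraries and 12564 and 10184 of the cytoplasmic ones, and FGG 8236 and 9410 of the cytosolic ones, which enter the shares of circRNA reads given below as denominator. The purity of the fractions could not be checked with these tables.

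The 17 circRNAs fell into 3 separate places in the gene, named here by their distance from its start. Because MAD1L1 lies on the minus strand, the higher coordinate of a circRNA is its upstream end. The near group held 3 circRNAs with spans of 741, 744 and 781 bases, which shared the start 2229984 and ended 2181 to 2221 bases from the gene start. The middle group also held 3, with spans of 6245, 9543 and 12339 bases, all with the start 2213212. The far group held 11 between 1898200 and 2069338, with spans from 191 to 116443 bases, and 9 of these 11 spanned more than 30000 bases. All positions are on hg38 as the tables give them, and span means the genomic distance between the ends, not the length of the spliced circle. Exons were not analysed here.

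**Figure D1:**
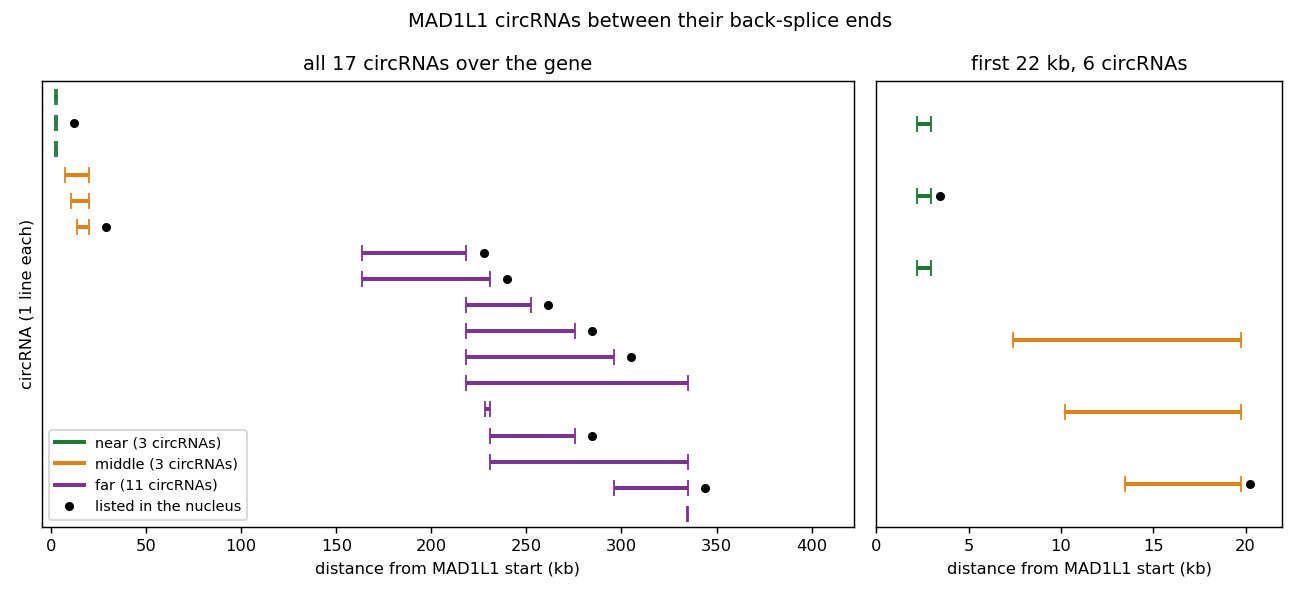
Map of the 17 MAD1L1 circRNAs, each drawn as a line between its back-splice ends, against distance from the gene start in kb. The left panel covers the gene and the right panel its first 22 kb with 6 circRNAs, and black points mark the 9 circRNAs listed in the nucleus, 7 of which lie in the far group.

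Some back-splice sites were shared by several circRNAs and others were not. The 17 circRNAs came from 8 starts and 12 ends, while the median over the 26 hosts with 15 to 19 circRNAs was 9.5 starts and 9 ends. MAD1L1 thus had fewer starts and more ends than this median. The start 1898200 was joined to 4 ends, giving spans of 191, 38698, 103922 and 116443 bases. The end 2014642 was joined to 4 starts, giving spans of 34190, 57014, 77956 and 116443 bases. In 4 places a start lay close below an end: 1898200 and 1898390 bounded 191 bases, 1936687 and 1936897 bounded 211 bases, 2002065 and 2002121 bounded 57 bases, and 2014502 and 2014642 bounded 141 bases. Only the first of these short segments was itself listed as a circRNA, while the others each served as the left edge of some circRNAs and the right edge of others.

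Taken over the 6 tables, MAD1L1 circRNAs had long spans. Their median span was 34190 bases, against 6525 bases over all 11227 circRNAs, and 52.9% spanned more than 30000 bases, against 14.0% of all. By table, the median was longer than that of all circRNAs for cells (38698 against 6536 bases), nucleus (44493 against 3386.5) and cytoplasm (12339 against 6240). It was shorter for cytosol (3494.5 against 6317), for the 2 ribosomal entries (1764 against 5885) and for the single exosomal one (744 against 5126). Among the 26 hosts with 15 to 19 circRNAs the median of the hosts' median spans was 15813 bases, and 2 hosts lay above MAD1L1. One lncRNA gene, LOC124901573, lay whole inside 6 of the circRNA spans, and no back-splice end fell into it or into any other annotated gene that overlaps MAD1L1. The tables give no strand, so transcripts of the opposite strand cannot be told apart.

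The fractions shared part of the set. Of the 17 circRNAs, 6 were in 1 table, 6 in 2, 4 in 3, and 1 in all 6. Those listed once were 3 in the nucleus, 2 in the cytoplasm and 1 in the ribosome fraction. Over all circRNAs, 52.6% were in 1 table and 1.63% in all 6. The cell, nucleus and cytoplasm tables listed 9 MAD1L1 circRNAs each, while 6 were listed for cytosol, 2 for ribosomes and 1 for exosomes. The equal counts of 9 came from tables of very different length, which held 5333 circRNAs for cells, 1302 for the nucleus and 6968 for the cytoplasm. Of the 9 nuclear circRNAs, 5 were also listed in cells and 4 in the cytoplasm. Of all 1302 nuclear circRNAs, 978 were also listed in the cytoplasm. The like counts over all circRNAs were not taken for nucleus and cells together or for any fraction alone. The members listed once are therefore given as a description. With entries of both callers only, cells and cytoplasm kept 6 each, the nucleus 5, the cytosol 2, ribosomes 1 and exosomes 0.

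The most abundant member was the 744-base circRNA of the near group (chromosome 7, 2229984 to 2230727), the only one listed in every fraction. Replicates 1 and 2 had 20 and 22 reads of it in the cytoplasm, 13 and 19 in cells, 16 and 17 in the cytosol, 4 and 4 in the nucleus, 4 and 3 for ribosomes, and 2 and 3 in exosomes. Cells, cytoplasm and cytosol lay above the other 3 fractions in every library. Per 10000000 library reads (RPTM) its level was 1.93 ± 0.762 in cells, 2.37 ± 0.620 in the cytoplasm and 1.66 ± 0.0441 in the cytosol (mean ± SD, n = 2 here and below). The cell libraries overlapped those of both other fractions. The level was 0.484 ± 0.0337 in the nucleus, 0.418 ± 0.00744 with ribosomes and 0.302 ± 0.00405 in exosomes. In exosomes the caller headed CIRC alone listed it.

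**Figure D2:**
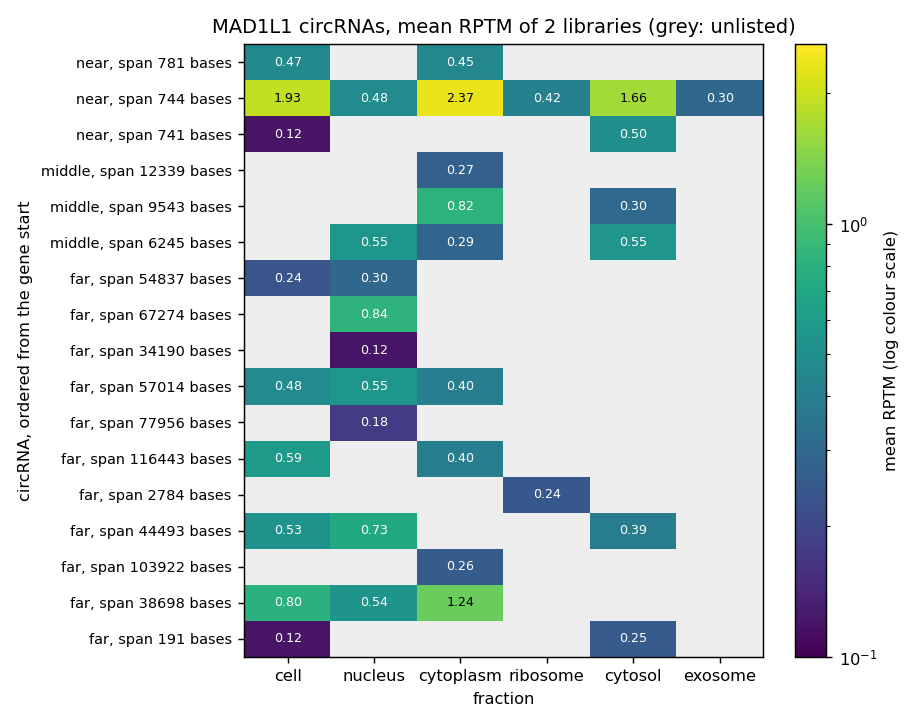
Heat map of the mean RPTM over 2 libraries of each MAD1L1 circRNA (rows, ordered from the gene start) in the 6 fractions (columns), on a log colour scale with unlisted entries in grey. The 744-base circRNA fills all 6 columns, and the 3 circRNAs listed in the nucleus alone lie in the far group.

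Its neighbours in the near group differed from it at the upstream end. The 781-base circRNA, ending at 2230764, had 4 and 4 reads in cells (0.473 ± 0.0652 RPTM) and 4 and 4 in the cytoplasm (0.449 ± 0.0879), and was listed nowhere else. The 741-base circRNA, ending at 2230724 and so 3 bases from the leading one, had 1 and 1 reads in cells and 5 and 5 in the cytosol (0.505 ± 0.0350). The caller headed Ciri never listed the 741-base circRNA. In the cytosol Ciri gave 19 and 21 reads to the 744-base circRNA, while CIRC gave it 13 and 12 and the 741-base one 5 and 5, a sum of 18 and 17. Averaged per entry over the callers that list it, the near group of the cytosol came to 21 and 22 reads, above the sum of either caller.

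In the middle group, the 6245-base circRNA (2213212 to 2219456) had 3 and 6 reads in the nucleus (0.553 ± 0.295 RPTM), 2 and 3 in the cytoplasm (0.288 ± 0.134) and 4 and 7 in the cytosol (0.548 ± 0.176). The nuclear libraries overlapped those of both other fractions. The 9543-base circRNA (2213212 to 2222754) had 9 and 6 reads in the cytoplasm (0.819 ± 0.0735) and 3 and 3 in the cytosol (0.303 ± 0.0210). The 12339-base circRNA was listed in the cytoplasm alone, with 3 and 2 reads. The cell, ribosome and exosome tables did not list any circRNA of the middle group.

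The far group was led by the 38698-base circRNA (1898200 to 1936897). It had 15 and 8 reads in the cytoplasm (1.24 ± 0.303 RPTM), 9 and 5 in cells (0.805 ± 0.220) and 5 and 4 in the nucleus (0.541 ± 0.0476). The other 3 tables did not list it. The 57014-base circRNA (1957629 to 2014642) had the same 3 fractions, with 3 and 5 reads in cells (0.485 ± 0.232), 3 and 6 in the nucleus (0.553 ± 0.295) and 3 and 4 in the cytoplasm (0.401 ± 0.156). Its levels overlapped in all 3. The 116443-base circRNA (1898200 to 2014642), the longest, had 5 and 5 reads in cells and 3 and 4 in the cytoplasm and was not listed in the nucleus.

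The 44493-base circRNA (1957629 to 2002121) was seen by Ciri alone, in 3 tables. It had 5 and 4 reads in cells (0.526 ± 0.0103 RPTM), 6 and 6 in the nucleus (0.726 ± 0.0505) and 2 and 6 in the cytosol (0.394 ± 0.258). The 54837-base circRNA (2014502 to 2069338) had 2 and 2 reads in cells and 3 and 2 in the nucleus.

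Nucleus-only members were all in the far group. The 67274-base circRNA (2002065 to 2069338) had 9 and 5 nuclear reads by both callers (0.835 ± 0.283 RPTM), the highest mean of the nuclear entries. The 77956-base circRNA (1936687 to 2014642) had 2 and 1 reads and the 34190-base one (1980453 to 2014642) 1 and 1, both by CIRC alone. With so few reads these 2 entries lie at the limit of listing. The remaining far circRNAs were the 191-base one, with 1 and 1 reads in cells and 3 and 2 in the cytosol, the 103922-base one, with 4 and 1 in the cytoplasm, and the 2784-base one (2002065 to 2004848), with 2 and 2 in the ribosome fraction.

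Support by the callers was uneven. Both callers listed 9 of the 17 circRNAs together in at least 1 table (52.9%, against 41.7% of all circRNAs), CIRC alone listed 5 and Ciri alone listed 3. Outside the 744-base circRNA no member exceeded 15 reads in any library.

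Summed over its circRNAs, MAD1L1 had 63 and 54 reads in the cytoplasm, 43 and 46 in cells, 36 and 35 in the nucleus, 33 and 40 in the cytosol, 6 and 5 with ribosomes and 2 and 3 in exosomes. In order of level, the cytoplasm had 6.50 ± 0.570 RPTM, cells 5.28 ± 0.976, the nucleus 4.29 ± 0.213, the cytosol 3.67 ± 0.244, the ribosome fraction 0.663 ± 0.0611 and exosomes 0.302 ± 0.00405. The cell libraries, at 4.59 and 5.97, did not overlap the cytoplasmic ones, at 6.10 and 6.90, but the means differed by little more than the SD of the cell libraries. The nuclear libraries, at 4.14 and 4.44, lay just below those of cells, and the cytosolic ones, at 3.50 and 3.84, just below the nuclear ones. The ribosomal and exosomal libraries were far below all others. MAD1L1 ranked 20th of 969 listed hosts by level in the nucleus, 149th of 2658 in cells, 174th of 3080 in the cytoplasm, 323rd of 2447 in the cytosol and 732nd of 1704 with ribosomes.

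As a share of circRNA reads the order was another. MAD1L1 held 0.466% (exact 95% Clopper-Pearson interval 0.327 to 0.644) and 0.484% (0.337 to 0.672) in the nuclear libraries. The cytoplasmic shares were 0.0870% (0.0669 to 0.111) and 0.0910% (0.0684 to 0.119), and those of cells 0.0814% (0.0589 to 0.110) and 0.110% (0.0808 to 0.147). Exosomal shares, 0.0868% (0.0105 to 0.313) and 0.130% (0.0269 to 0.381), rested on 2 and 3 reads and could not be separated from those of cells. The cytosolic shares were 0.0544% (0.0374 to 0.0763) and 0.0673% (0.0481 to 0.0916), and the ribosomal ones 0.0219% (0.00803 to 0.0476) and 0.0254% (0.00826 to 0.0594). All intervals cover counting error only. The nuclear share was thus 5.33 times the cytoplasmic one, while the nuclear level per library read was 0.660 times the cytoplasmic one, and the nuclear libraries held far fewer circRNA reads in all.

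**Figure D3:**
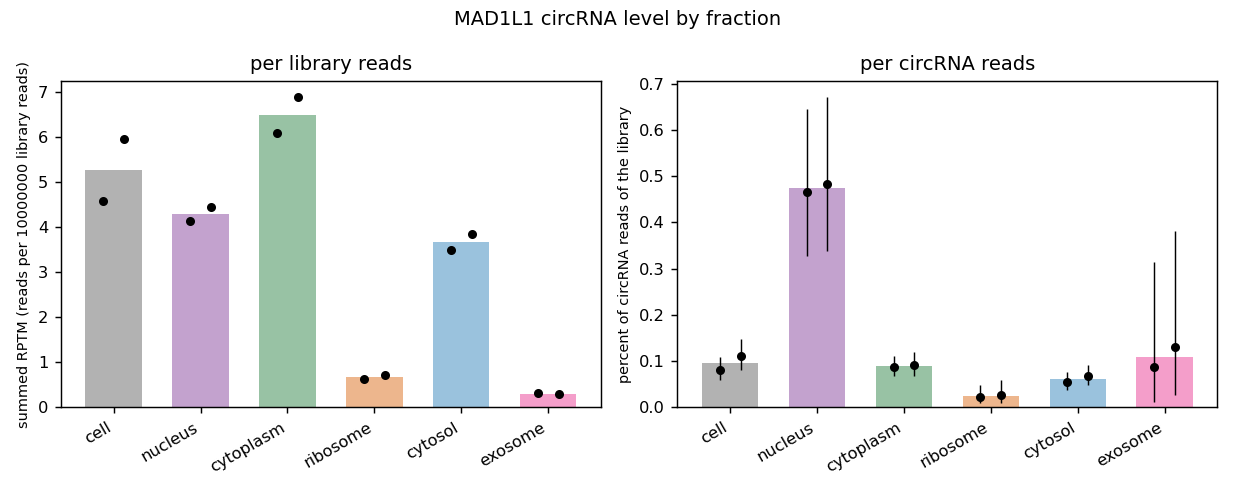
Summed MAD1L1 circRNA level by fraction, as RPTM (left) and as percent of the circRNA reads of a library (right), with bars at the mean of 2 libraries, points for the libraries and, on the right, exact 95% intervals. The nuclear libraries lie below cytoplasm and cells by RPTM, at 4.14 and 4.44, and are highest by share, at 0.466% and 0.484%.

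Over the 845 hosts listed in both nucleus and cytoplasm, the median ratio of nuclear to cytoplasmic RPTM was 0.196, and 86.2% of hosts lay below the 0.660 of MAD1L1. Among its own circRNAs listed in both tables the ratio was 0.204 for the 744-base one, 0.438 for the 38698-base one, 1.38 for the 57014-base one and 1.92 for the 6245-base one, the last 2 on 9 nuclear reads in all each. The median over the 978 circRNAs listed in both was 0.299. MAD1L1 was picked for the nucleus, and the hosts with most circRNAs in the other tables are picked for those, so a difference between them in this ratio follows from the choice. The ratio was 0.0276 for BIRC6, an inhibitor of apoptosis gene with 43 circRNAs, 0.0768 for the calcium channel gene ITPR2 with 35, 0.0777 for the transcription factor gene NFATC3 with 14, and 0.252 for UBAP2 with 28. TBCD, second to MAD1L1 in the nucleus table, had 6.28 RPTM there and 9.42 in the cytoplasm, and TMEM138, with 1 circRNA, 2.89 and 2.92. BIRC6 had 29 circRNAs in the cytoplasm and 1 in the nucleus. Of the 239 hosts at least 300 kb long, 89 had a nuclear circRNA, with a median of 1 among them. The largest count besides that of MAD1L1 was 5. That MAD1L1 lies above them also follows from the choice, and a part of gene length in its count was not tested.

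The 3 places in the gene were weighted differently across fractions. The far group held 29 of 36 reads (80.6%, interval 64.0 to 91.8) and 25 of 35 (71.4%, 53.7 to 85.4) in the nucleus. In cells it held 58.1% and 47.8%, in the cytoplasm 39.7% and 31.5%, in the cytosol 15.2% and 20.0%, and in the ribosome fraction 2 of 6 and 2 of 5 reads. The near group ran the other way, with 11.1% and 11.4% in the nucleus, 41.9% and 52.2% in cells, 38.1% and 48.1% in the cytoplasm, and 63.6% and 55.0% in the cytosol. With ribosomes it held 66.7% (4 of 6 reads) and 60.0% (3 of 5), and in exosomes all of the 2 and 3 reads. Both nuclear libraries lay above all others for the far group, and both cytosolic ones lay above those of cytoplasm, cells and nucleus for the near group.

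**Figure D4:**
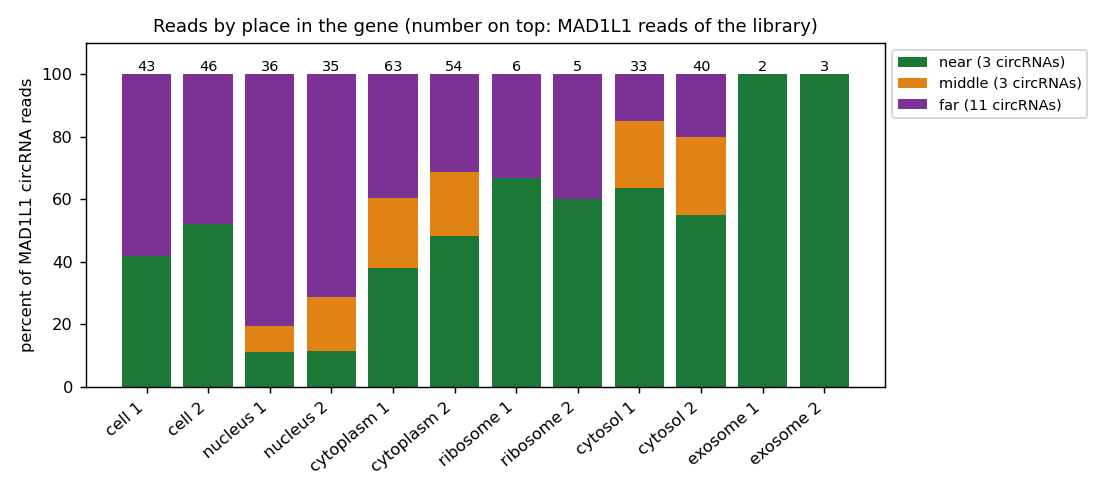
Percent of the MAD1L1 circRNA reads of each of the 12 libraries that came from the near, middle and far groups of circRNAs, with the number of MAD1L1 reads above each bar. The far group makes up 80.6% and 71.4% in the nucleus and 15.2% and 20.0% in the cytosol.

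By level, the far group had 3.25 ± 0.115 RPTM in the nucleus, 2.76 ± 0.132 in cells, 2.30 ± 0.174 in the cytoplasm, 0.649 ± 0.169 in the cytosol and 0.245 ± 0.0537 with ribosomes. The near group had 0.484 ± 0.0337 in the nucleus against 2.52 ± 0.844 in cells, 2.82 ± 0.708 in the cytoplasm and 2.17 ± 0.0791 in the cytosol. For the far group both nuclear libraries, at 3.34 and 3.17, lay above both cell libraries, at 2.67 and 2.86. For the near group they lay below, at 0.460 and 0.508 against 1.92 and 3.11. The groups were drawn with the values known, so no test is given. Circles spanning more than 30000 bases took 80.6% and 71.4% of nuclear MAD1L1 reads, beside 15.3% and 14.4% of all nuclear circRNA reads. In the ribosome fraction such long spans took 21.8% and 20.7% of all circRNA reads and none of the MAD1L1 reads. With 6 and 5 MAD1L1 reads there, this is too few to be read as an absence.

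The comparisons that leave out the nucleus could be tested, in 1 edgeR quasi-likelihood fit over 1130 hosts with Benjamini-Hochberg adjustment. The labels state no purpose for the single contrasts. Summed MAD1L1 circRNA reads were lower in the ribosome fraction than in the cytosol, by a log2 value of -1.64 ± 0.39 (SE, edgeR adjusted p = 0.00178), and both ribosomal libraries lay below both cytosolic ones. Of the 1130 hosts, 29.8% were lower, and the median log2 fold change was -0.06. By level, MAD1L1 had a ribosome to cytosol ratio of 0.181, against a median of 0.578 over 1352 hosts listed in both tables. The call depended on how unlisted circRNAs were entered. With each at 1 read in place of 0, the change was -0.36 (edgeR adjusted p = 0.271, the highest over the alternatives, which began at 4.1e-05). That setting adds a read for each unlisted member, and ribosomes list 2 of the 17 members and the cytosol 6. It therefore draws the change toward 0 by construction. The main setting can err the other way, since it enters more members at 0 for ribosomes than for the cytosol. An unlisted circRNA is not a measured 0, so neither value is neutral. Scaled to implied library totals in place of TMM factors, the median host moved to -0.89 and MAD1L1 to -2.46, and 514 hosts were lower and 135 higher, where TMM gave 337 and 281.

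For single circRNAs, only the 744-base member could be tested independently of the nucleus. Of the 17 members 9 entered this fit, since both callers had to list a circRNA in the same table, and 4 of these 9 passed its filter on low counts, beside 950 circRNAs in all. The 6245-base, 38698-base and 57014-base ones passed through the 2 nuclear libraries alone, the fraction that chose the gene, while the 744-base one also passed through 5 others. Counts of calls among the 4 are therefore given without being read as a result. The 744-base circRNA had a log2 difference of -1.22 ± 0.58 between ribosome fraction and cytosol, which did not pass (edgeR adjusted p = 0.0738). Of the 4, 1 was called lower, the 6245-base one, which has no ribosomal entry, beside 28.3% of all 950. In all, 269 of the 950 were lower and 240 higher, against 382 and 134 on implied library totals. That call was lost with DESeq2, with unlisted circRNAs at 1 read (-1.31, edgeR adjusted p = 0.244) and without ribosomal replicate 1 (edgeR adjusted p = 0.0578), and the lowest adjusted p over its alternatives was 7.9e-04.

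Between cytosol and cytoplasm, the summed MAD1L1 reads had a log2 difference of -0.45 ± 0.24, which did not pass (edgeR adjusted p = 0.120), where 32.3% of hosts were lower. With the reads of 1 caller alone the difference was -0.64 with Ciri (edgeR adjusted p = 0.0423) and -1.08 with CIRC (edgeR adjusted p = 0.00196). The edgeR adjusted p over all alternatives ran up to 0.746. The averaged cytosolic sums, 33 and 40 reads, lay above those of Ciri (28 and 37) and CIRC (24 and 22). In the cytoplasm they were 63 and 54, beside 57 and 54 with Ciri and 60 and 48 with CIRC. A part of this averaging in the main value was not tested. On implied library totals MAD1L1 was at -0.82 beside a median host at -0.40, and 443 hosts were lower and 225 higher, where TMM gave 365 and 319. The 744-base circRNA had -0.16 ± 0.40 (edgeR adjusted p = 0.765). Among the other 3 that passed the filter through the nuclear libraries, the 6245-base one had 1.26 ± 0.63 (edgeR adjusted p = 0.115). It was called higher with RLE factors (1.58, edgeR adjusted p = 0.0425), beside 322 of 950. With at least 5 reads in 2 libraries it was also higher (1.61, edgeR adjusted p = 0.0478), beside 734 of 2630. The 38698-base and 57014-base ones were called lower, beside 30.2% of all 950 (287 lower and 267 higher, against 327 and 198 on implied library totals). Both have no cytosolic entry, so no fold change is given. With unlisted circRNAs at 1 read (548 of 950 called in either direction) or with DESeq2 (273 of 950), 1 of the 4 was called in place of 2.

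Between cytoplasm and whole cells the summed reads had a log2 difference of -0.16 ± 0.24 (edgeR adjusted p = 0.817), and 6.9% of hosts were called in either direction. On implied library totals the direction turned, with MAD1L1 at 0.30 and the median host at 0.39, and 31 hosts were lower and 106 higher, where TMM gave 48 and 30. None of the 4 circRNAs passed by edgeR, beside 4.11% of all 950 (24 lower and 15 higher, against 18 and 21 on implied totals). At an unadjusted p under 0.05 there was 1 of 4 by edgeR, beside 118 of all 950, and none by DESeq2, beside 45 of 950. All but the 744-base one passed the filter through the nuclear libraries alone, so these counts are not read as a result. The 744-base circRNA had -0.04 ± 0.41. Of those that passed through the nuclear libraries alone, the 38698-base one had 0.28 ± 0.49 and the 57014-base one -0.60 ± 0.62, given as a description.

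Of 34 genes of the spindle checkpoint, the kinetochore and its anchor at the nuclear pore, MAD1L1 included, 10 were listed in at least 1 table. Of these, 9 were in the cytoplasm, 8 in cells, 4 in the cytosol, 3 with ribosomes, 2 in the nucleus and 1 in exosomes. Of all 4049 hosts, 3080 were in the cytoplasm, 2658 in cells, 2447 in the cytosol, 1704 with ribosomes, 969 in the nucleus and 360 in exosomes. Besides MAD1L1, which was chosen by its nuclear count, the gene of this list in the nucleus was NUP153. It encodes a nucleoporin of the pore basket and had 12 circRNAs. NUP153 had 0.904 ± 0.0224 RPTM in the nucleus, 3.01 ± 0.979 in the cytoplasm and 4.40 ± 0.662 in the cytosol. KNTC1, a subunit of the complex that brings the MAD proteins to kinetochores, had 8 circRNAs and 1.63 ± 0.943 in the cytoplasm. TPR itself had 1 circRNA, with 8 and 2 reads in the cytoplasm. TRIP13, BUB1, BUB1B, AURKB, ZWILCH and KNL1 were the others, with 1 to 4 circRNAs each, where the median over all 4049 hosts was 2.

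Of these hosts only MAD1L1 and NUP153 had enough reads for the test. Both were lower in the ribosome fraction than in the cytosol, NUP153 with -2.17 ± 0.40 (edgeR adjusted p = 3.1e-04). NUP153 was higher in cytosol than in cytoplasm, by 0.92 ± 0.28 (edgeR adjusted p = 0.00966), as were 28.2% of hosts, where MAD1L1 had -0.45 ± 0.24 and did not pass. The difference between the hosts was not tested.

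The hosts whose summed levels followed those of MAD1L1 most closely were found by Pearson's r over the 6 fraction means of log2(RPTM + 0.1), among 176 hosts listed in all 6 tables with at least 0.5 times its summed level. They were ASPH (r = 0.953), the gene of an aspartyl hydroxylase of the endoplasmic reticulum, FOCAD (r = 0.908), TBCD (r = 0.890), TMEM138 (r = 0.887) and the transcription factor gene SOX5 (r = 0.863). These values describe 6 points that share the depth of their libraries. ASPH had 91.9 RPTM in the cytoplasm, 73.3 in cells, 44.1 in the nucleus, 22.8 in the cytosol and 11.7 with ribosomes, the same order as MAD1L1 at a higher level. TBCD had about equal levels, 3.20 and 3.23, with ribosomes and in the cytosol.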

How the data were processed

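The deposited tables give whole-number counts of back-splice reads per circRNA and library from each of the callers Ciri and CIRC, named in the file headers, and signal values named RPTM, read here as reads per 10000000 library reads. The build was hg38, per the submitters' processing notes. The sources used here name no aligner or caller version. The 2 mitochondrial samples were not analysed here. Each deposited RPTM of the Ciri caller was a linear function of its 2 counts, and this gave the library totals.

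Tables were joined on chromosome, start and end. An entry's reads were averaged over the callers that list it and rounded, and unlisted circRNAs were entered as 0. Hosts were RefSeq genes spanning both ends, protein-coding first. Counts were tested with edgeR 4.0.16 in R 4.3.3 (quasi-likelihood, TMM, filterByExpr with a minimum count of 10, adjusted p under 0.05), in 1 fit over 12 libraries. One fit took host sums, the other the 4679 circRNAs found by both callers in the same table. The SE was taken as the size of the log2 value over the square root of F. DESeq2 1.42.0, other scales, filters, callers and left-out libraries were the alternatives.

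Values per library are given for members listed in at least 3 tables or in the nucleus and for the 5 most abundant, by rule, and those of the remaining members were added. Intervals cover counting error only. The members, lists and tests were chosen with earlier results of these data known.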

Additional observations from a re-analysis of the deposited data

How the results depend on the processing

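Most values rest on fewer than 10 reads, so depth limits which circRNAs are listed. With 1 library left out, a lone library is assumed to vary like the other fractions. Summed MAD1L1 reads in ribosome against cytosol stayed between -1.76 and -1.43 (log2) with 1 library left out and passed each time. They were -1.18 with Ciri reads, -1.55 with CIRC reads and -2.46 with implied library totals. They missed the threshold only with unlisted circRNAs at 1 read (-0.36). In cytosol against cytoplasm they ran from -0.65 to -0.33 without 1 library, never passing, and passed with implied library totals (-0.82), Ciri reads (-0.64) and CIRC reads (-1.08). In cytoplasm against cell they ran from -0.37 to 0.060 without 1 library, turned positive (0.060) without cell replicate 2 and to 0.30 with implied totals, and passed nowhere.

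In the main fit, 3 of the 4 members passed the filter through the nuclear libraries alone. They enter the counts that follow, so these say nothing of stability. Beside each count of members stands that of all circRNAs called in either direction. Members passing in ribosome against cytosol were 1 of 4, beside 509 of 950. They were 2 of 4 with RLE factors (515 of 950) and with implied totals (516 of 950). With at least 5 reads in 2 libraries they were 3 of 7 (1340 of 2630). None passed with DESeq2 (262 of 950), CIRC reads (472 of 871) or unlisted at 1 read (452 of 950). In cytosol against cytoplasm they were 2 of 4, beside 554 of 950. With RLE factors they were 3 of 4 (555 of 950). They were 4 of 9 with no filter (2776 of 4679) and 4 of 7 with at least 5 reads in 2 libraries (1432 of 2630). With DESeq2 (273 of 950) and unlisted at 1 read (548 of 950) they were 1 of 4. With CIRC reads they were 1 of 2 (517 of 871). In cytoplasm against cell they were 0 of 4, beside 39 of 950. They were 2 of 9 with no filter (1206 of 4679) and 1 of 7 with at least 5 reads in 2 libraries (308 of 2630).

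With at least 5 reads in each library, cells and cytoplasm listed 3 members each, nucleus and cytosol 2 each, and ribosomes and exosomes 0. With both callers the nucleus listed 5, the cytosol 2, ribosomes 1 and exosomes 0. Among circRNAs that both callers list, MAD1L1 held 0.542% in the nucleus, 0.181% in exosomes, 0.137% in cells and 0.134% in the cytoplasm. The share relative to the cytoplasm was then 4.03 for nucleus, 0.180 for ribosomes and 0.505 for cytosol. By RPTM those ratios were 0.660, 0.102 and 0.564, and 0.812 for cells and 0.0465 for exosomes. By share of all circRNA reads they were 5.33, 0.266 and 0.683, and 1.08 for cells and 1.22 for exosomes, so cells, nucleus and exosomes turned direction with the scale. With CIRC reads the 744-base circRNA held 14.5% of MAD1L1 reads in the nucleus, 54.4% in the cytosol and 100% with ribosomes, against 11.3%, 45.5% and 63.3%. The cause of these shifts was not tested.

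With the replicate number as a block (replicate block), the summed changes were -1.62, -0.46 and -0.15. Members passing were 1, 2 and 0 of 4, beside 512, 549 and 40 of all 950 circRNAs, so no call changed. The labels do not say whether the replicate numbers pair libraries across fractions. The correlation of replicate differences between fractions ran from -0.094 to 0.129 (ribosome and cytosol) over 665 circRNAs. These values cannot decide the pairing, because counting error also enters the differences.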
